A study of Homo sapiens with 6 samples.

Results

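MGP, SPP1 and 8 further genes that control calcification were examined in A375 cells, an established human melanoma line, after knockdown of ERK3, an atypical MAP kinase whose gene is MAPK6. The 10 genes, out of 17687 compared, were chosen by name around MGP, because MGP had the largest rise of all genes in this same comparison. All 10 were present in the platform annotation, each with 1 probe set. Cells received a predesigned siRNA against ERK3 (siERK3, 3 arrays) or a negative control siRNA (siCon, 3 arrays), both with the same transfection reagent, and RNA was taken after 3 days and hybridised to Clariom S Pico arrays. All cells were grown in medium with 10% serum. The labels name 1 siRNA reagent against ERK3, so its effects and those of losing ERK3 cannot be told apart, and they do not say whether replicates were separate cultures. P-values below therefore measure only the spread between these arrays.

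Calcification is held back by proteins and small molecules that act at several steps. Matrix Gla protein (MGP) and other Gla proteins must first be carboxylated on glutamate residues by an enzyme that consumes reduced vitamin K, which a reductase cycle then restores. Extracellular pyrophosphate blocks crystal growth and is made, exported and destroyed by separate membrane proteins. Osteopontin (SPP1) and osteonectin (SPARC) are secreted proteins that bind mineral or collagen, and both are also well known as secreted products of melanoma cells.

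Values are the deposited log2 signals, 1 per probe set and array, and every difference is siERK3 minus siCon on that scale. Array medians lay between 7.06 and 7.10. The 95th percentile of 612 negative control probe sets, which lay between 7.32 and 7.56, served as the background level, and 45.6% to 47.6% of the genes lay above it. Levels are not compared between genes, because probe sets differ in brightness. MAPK6 itself read 10.54, 10.32 and 10.67 in siERK3, against 13.45, 13.55 and 13.62 in siCon, 8.18-fold lower in siERK3 (difference -3.03, SE 0.14, limma adjusted p = 0.000133). On the second principal component siCon 2 and siERK3 3 stood apart from the other 4 arrays, at -26.5 and -15.2 against 4.35 to 21.7.

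The 10 genes did not move as a group. MGP and SPP1 were higher in siERK3, SPARC was slightly lower, and the genes of the vitamin K cycle and of pyrophosphate handling, and GAS6, had differences between -0.14 and 0.14. The median difference over the 10 was 0.10, against 0.00 over all genes. For these genes intervals of the fit are given and no p-values, since this contrast chose them. In the limma fit over all genes, with Benjamini-Hochberg adjustment and a threshold of 0.05, MGP and SPP1 lay past the threshold, both higher, and the other 8 did not. Of all genes, 0.956% were called, 0.447% as higher and 0.509% as lower. The groups did not overlap for 4 of the 10, MGP, SPP1 and ANKH being higher and SPARC lower, against 19.8% of all genes (10.1% higher, 9.7% lower). Nothing is read from either count.

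**Figure D1:**
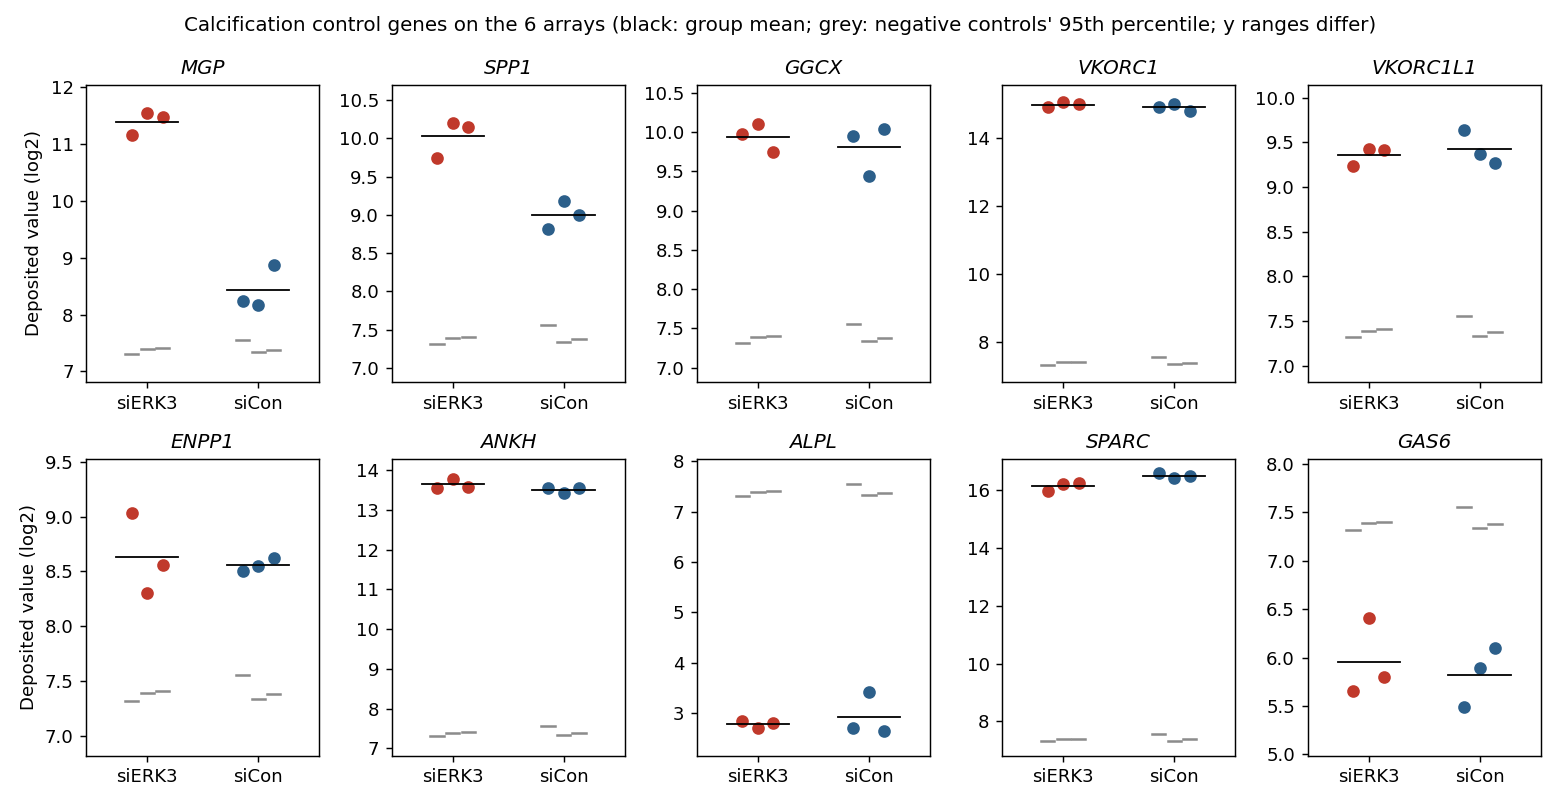
Deposited log2 values of the 10 genes on each array, with siERK3 left of siCon, the group mean as a black line and each array's background level as a grey dash; the y ranges differ between panels. MGP and SPP1 are higher in siERK3 with a clear gap, SPARC is lower by a small margin, and ALPL and GAS6 lie under the background level on all 6 arrays.

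MGP encodes the secreted Gla protein that keeps cartilage and arteries free of mineral and also binds bone morphogenetic proteins (BMPs). Its probe set, TC1200010022.hg.1, read 11.17, 11.54 and 11.49 in siERK3, against 8.24, 8.17 and 8.88 in siCon. The 3 siERK3 values lay close together, while siCon 3 was the highest of the controls, and the lowest siERK3 value was still 2.29 above it. The means were 11.40 ± 0.20 in siERK3 and 8.43 ± 0.39 in siCon (SD, n = 3 each). The difference of 2.97 (SE 0.21, 95% interval 2.49 to 3.44) corresponds to 7.82-fold, with an interval of 5.63-fold to 10.9-fold. Against the background level of the same array, MGP lay 3.85 to 4.15 above it in siERK3 and 0.68 to 1.5 above it in siCon. In siCon the gene was therefore read near the lower end of the measurable range. With bulk RNA, a few cells with much MGP transcript and many cells with some cannot be told apart.

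As the rule took the largest rise, the next genes in that order show where it stopped. A2M, a broad protease inhibitor, had a difference of 2.13 and CHPF, an enzyme of chondroitin synthesis, of 2.10. A2M lay above background on 3 of 3 siERK3 arrays and 0 of 3 siCon arrays, and CHPF on 3 of 3 and 2 of 3.

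GAS6 is a second Gla protein of the set, a ligand of the TAM receptor tyrosine kinases. It read 5.65, 6.41 and 5.80 in siERK3, against 5.49, 5.89 and 6.09 in siCon. All 6 values lay below the background level, so a lower level could not have been seen, and no fold is given. Its means were 5.95 ± 0.40 in siERK3 and 5.82 ± 0.31 in siCon (SD, n = 3 each). MERTK, a TAM receptor, and SOCS1, a suppressor of cytokine signalling, had the smallest p among the 7 measured genes of the receptor list, and both were below background on all 6 arrays. MERTK read 3.51 in siERK3 and 3.08 in siCon (limma adjusted p = 0.289), and SOCS1 read 3.99 in siERK3 and 4.29 in siCon (limma adjusted p = 0.548). AXL, the TAM receptor best known in invasive melanoma, was looked up after its value had been seen. It read 12.13, 11.94 and 11.93 in siERK3, against 11.99, 12.43 and 12.32 in siCon, and the groups overlapped (difference -0.25, SE 0.16, limma adjusted p = 0.565).

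The carboxylation machinery that MGP depends on was measured well above background. GGCX, the gamma-glutamyl carboxylase that forms Gla residues, read 9.98, 10.10 and 9.75 in siERK3, against 9.95, 9.44 and 10.05 in siCon. siCon 2 was the low array, and the other 5 values lay between 9.75 and 10.10. The difference was 0.13 (SE 0.19, 95% interval -0.30 to 0.56), and it ranged from -0.06 without siCon 2 to 0.25 without siCon 3 when single arrays were left out.

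VKORC1, the reductase that regenerates vitamin K and is the target of warfarin, read 14.90, 15.06 and 14.99 in siERK3, against 14.91, 15.01 and 14.80 in siCon. The groups overlapped, with siERK3 2 above and siCon 3 below the range of the other group, and a difference of 0.07 (SE 0.13, 95% interval -0.22 to 0.37). In folds, that interval runs from 0.856 to 1.29. VKORC1L1, its paralogue with the same reductase activity, read 9.24, 9.43 and 9.42 in siERK3, against 9.64, 9.37 and 9.27 in siCon. Its difference was -0.07 (SE 0.15, 95% interval -0.40 to 0.27), and the highest and the lowest value were siCon 1 and siERK3 1. A change as large as that of MGP lies outside the intervals of all 3 enzymes. MGP was chosen as the largest rise of all genes, so nothing is read from this.

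Pyrophosphate is made from ATP outside the cell by ENPP1, an ectonucleotide pyrophosphatase. ENPP1 read 9.03, 8.30 and 8.56 in siERK3, against 8.50, 8.55 and 8.63 in siCon. Its siERK3 values were the more scattered, with an SD of 0.37 against 0.06 in siCon, and enclosed all 3 control values. The difference was 0.07 (SE 0.19, 95% interval -0.36 to 0.50).

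ANKH, a membrane protein needed to bring ATP and pyrophosphate out of the cell, read 13.56, 13.79 and 13.58 in siERK3, against 13.54, 13.42 and 13.56 in siCon. The groups did not overlap, but the lowest siERK3 value exceeded the highest siCon value by only 0.0014. The difference was 0.14 (SE 0.13, 95% interval -0.17 to 0.44). ALPL, the tissue-nonspecific alkaline phosphatase that destroys pyrophosphate, lay between 2.70 and 2.83 in siERK3 and between 2.65 and 3.41 in siCon. Those values are at least 3.92 under the background level of their arrays, so ALPL was not detected in either group.

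SPP1 encodes osteopontin, an acidic phosphoprotein that inhibits crystal growth and binds integrins and CD44. It read 9.74, 10.20 and 10.15 in siERK3, against 8.81, 9.18 and 8.99 in siCon. siERK3 1 was the lowest of its group and lay 0.56 above the highest control. The means were 10.03 ± 0.25 in siERK3 and 8.99 ± 0.18 in siCon (SD, n = 3 each). The difference of 1.04 (SE 0.17, 95% interval 0.65 to 1.42) corresponds to 2.05-fold, with an interval of 1.57-fold to 2.68-fold. SPP1 ranked 41 among all genes by size of the rise. Its place past the threshold was lost in all 6 fits that left out 1 array. The SPP1 difference itself lay between 0.94 and 1.18 in those fits.

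SPARC encodes osteonectin, a collagen-binding glycoprotein of bone and of many invasive tumours. It read 15.97, 16.20 and 16.26 in siERK3, against 16.59, 16.42 and 16.49 in siCon. Every siERK3 value lay below every siCon value, by a gap of 0.16. The means were 16.14 ± 0.16 in siERK3 and 16.50 ± 0.09 in siCon (SD, n = 3 each). The difference was -0.36 (SE 0.14, 95% interval -0.67 to -0.04), a signal 1.28-fold lower in siERK3. On 5 of the 6 arrays SPARC exceeded 16, which an untransformed 16-bit reading cannot, and the relation of this scale to scanner readings is unknown.

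**Figure D2:**
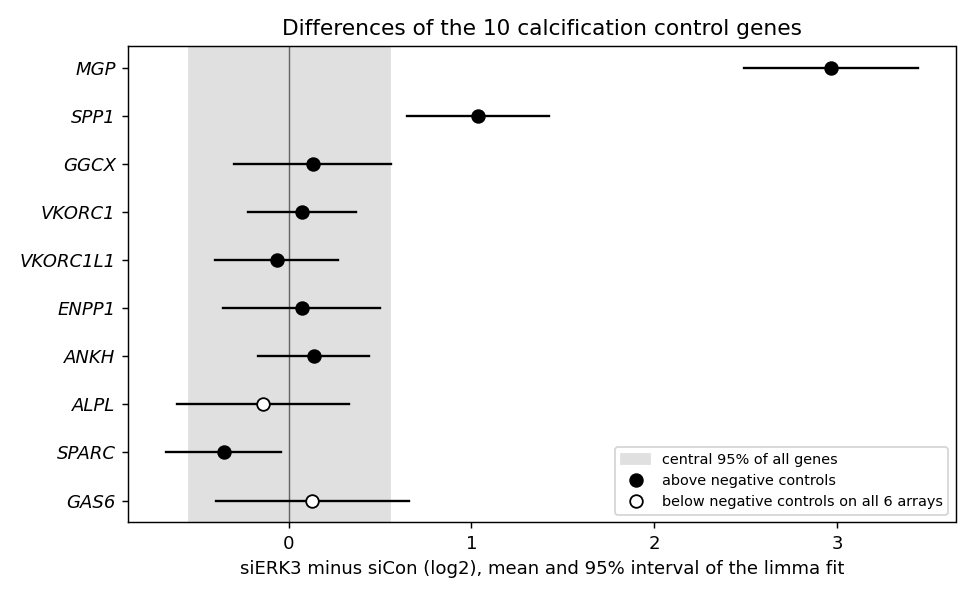
Difference between siERK3 and siCon (log2, x axis) for each of the 10 genes, with the 95% interval of the limma fit as a bar; open points lie below background on all 6 arrays and the grey band holds the central 95% of all genes, -0.55 to 0.56. MGP at 2.97 and SPP1 at 1.04 lie outside the band, and the other 8 lie inside it. MGP was chosen as the largest rise in this contrast, so its place outside the band was set in advance.

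Promoters of SPP1 and SPARC are shown because these are the mineral-binding proteins that differed in opposite directions. They are RefSeq sequences on GRCh38.p14, from 250 bases before the annotated start to 50 bases after it. Promoter entries were found for 9 of the 10 genes, MGP being the exception. Capitals mark the core motif of RUNX factors, TGTGGT on either strand, in the first sequence (chr4:87975464-87975763, plus strand) and the purine-rich GGAGGA motif on either strand in the second (chr5:151686866-151687165, minus strand):
SPP1: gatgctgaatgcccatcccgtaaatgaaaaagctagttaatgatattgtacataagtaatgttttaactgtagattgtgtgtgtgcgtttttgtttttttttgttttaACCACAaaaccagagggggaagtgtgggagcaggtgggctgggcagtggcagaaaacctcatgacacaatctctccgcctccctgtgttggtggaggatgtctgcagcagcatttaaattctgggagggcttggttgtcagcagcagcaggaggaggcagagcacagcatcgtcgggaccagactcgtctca
SPARC: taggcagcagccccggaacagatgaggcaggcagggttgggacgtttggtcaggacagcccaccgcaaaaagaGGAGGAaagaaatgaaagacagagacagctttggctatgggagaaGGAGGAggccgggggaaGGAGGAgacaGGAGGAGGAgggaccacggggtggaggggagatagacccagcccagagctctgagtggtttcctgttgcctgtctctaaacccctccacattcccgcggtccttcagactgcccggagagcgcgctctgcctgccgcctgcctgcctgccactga

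The RUNX core stood once in the SPP1 window, 142 bases before the start, and in no other promoter of the set, while 13.1% of all 35116 promoters in the table hold it. GGAGGA occurred 5 times in the SPARC window, between 177 and 102 bases before the start with the last 2 matches overlapping, 2 times each in SPP1 and GAS6 and once in ANKH, and 36.6% of all promoters hold it. The GC box GGGCGG was absent from SPP1 and SPARC and present in at least 1 promoter of the other 7 genes, against 45.0% of all promoters. TATAAA was found in 1 ALPL promoter (11.5% of all promoters hold it) and the AP-1 motif TGANTCA in none (7.71% of all). The SPP1 window had a GC content of 47.7% and that of SPARC of 61.3%, with a median of 58.7% over all promoters. These matches describe letters in the windows and say nothing on which factors bind there.

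The wider pathway was followed in 10 lists of ligands, receptors, enzymes and targets, with 135 genes outside the 10 members, of which 122 were measured. In limma, 1 of them rose and 1 fell over all genes tested, which makes 1.64%, close to the 0.956% called among all genes. The median difference was 0.03, against 0.00 over all genes, and 53 of the 122 lay above background on at least 1 array. Without adjustment, 15 of the 122 had a positive and 9 a negative difference at p under 0.05, against 1235 and 1149 of all 17687 genes.

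NT5E fell. It encodes the ectonucleotidase CD73, which turns AMP into adenosine downstream of ENPP1, and people who lack it develop arterial calcification. NT5E read 12.78, 13.13 and 13.29 in siERK3, against 14.54, 14.70 and 14.69 in siCon, and the groups were 1.25 apart at their nearest values. The difference was -1.58 (SE 0.16, limma adjusted p = 0.00566), lower in 3 of 3 siERK3 arrays, and it passed in all 6 fits that left out 1 array. Of the other 11 measured genes of pyrophosphate and phosphate handling, 0 passed in limma and 1 more was lower at an unadjusted p under 0.05. That gene was ANO6, a phospholipid scramblase with a part in bone mineralisation in mice, which averaged 11.99 ± 0.15 in siERK3 and 12.64 ± 0.15 in siCon (SD, n = 3 each; difference -0.65, limma adjusted p = 0.0897).

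SMAD6, an intracellular inhibitor of BMP signalling that BMPs themselves induce, rose. It read 9.60, 9.50 and 9.62 in siERK3, against 7.92, 8.38 and 8.45 in siCon, a gap of 1.05 between the nearest values. The difference was 1.33 (SE 0.17, limma adjusted p = 0.0135), higher in 3 of 3 siERK3 arrays. Its call was lost without siERK3 1, siERK3 2 or siERK3 3, with adjusted p of 0.0657, 0.0685 and 0.0764 in limma, and over all 17 alternatives the adjusted p ranged from 0.00012 to 0.141. The other 22 measured BMP genes did not pass; at an unadjusted p under 0.05, 2 of them lay above siCon and 2 below. ID3, a transcriptional target of BMPs, averaged 11.91 ± 0.10 in siERK3 and 11.34 ± 0.16 in siCon (SD, n = 3 each; difference 0.56, SE 0.14, limma adjusted p = 0.121). ID1, ID2 and SMAD7 of the same list, named after their values had been seen, had differences of -0.13, -0.21 and -0.29. ID2 lay above background on 0 of 3 siERK3 and 1 of 3 siCon arrays. The list median was 0.00.

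**Figure D3:**
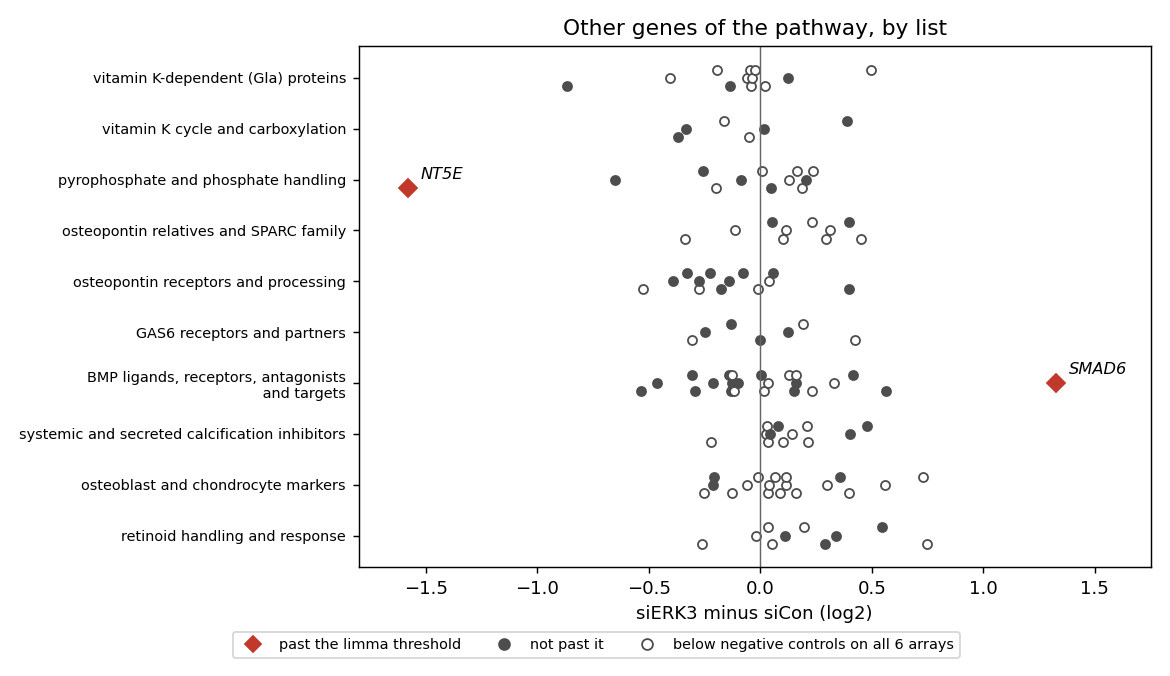
Difference between siERK3 and siCon (log2, x axis) of the measured pathway genes outside the 10 members, 1 point per gene in each of 10 lists; red diamonds passed the limma threshold over all genes and open circles lie below background on all 6 arrays. NT5E at -1.58 and SMAD6 at 1.33 are the genes past the threshold, and the other points lie between -0.87 and 0.75.

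Among 12 further Gla proteins, 0 passed in limma, with 1 positive and 1 negative difference at an unadjusted p under 0.05 and a median difference of -0.04. PRRG4, a transmembrane Gla protein, averaged 7.36 ± 0.26 in siERK3 and 8.23 ± 0.18 in siCon (SD, n = 3 each), with 2 of 3 siERK3 arrays and 3 of 3 siCon arrays above background (difference -0.87, limma adjusted p = 0.0644). PROC, which encodes the anticoagulant protein C, was below background on all 6 arrays, at 5.66 in siERK3 and 5.16 in siCon (limma adjusted p = 0.235). Of 6 further genes of the vitamin K cycle, 0 passed in limma, with 1 positive and 2 negative differences at an unadjusted p under 0.05 and a median of -0.11. NQO1, a quinone reductase able to reduce vitamin K, averaged 15.90 ± 0.03 in siERK3 and 15.51 ± 0.02 in siCon (SD, n = 3 each; difference 0.39, limma adjusted p = 0.211). CALU, which encodes calumenin, an inhibitor of carboxylation in the endoplasmic reticulum, averaged 15.71 ± 0.08 in siERK3 and 16.04 ± 0.10 in siCon (SD, n = 3 each; difference -0.33, limma adjusted p = 0.314).

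Relatives of osteopontin and SPARC gave 0 calls in limma among 10 measured genes, with 1 higher at an unadjusted p under 0.05 and a median difference of 0.17. SMOC1, a SPARC relative, averaged 7.79 ± 0.17 in siERK3 and 7.39 ± 0.12 in siCon (SD, n = 3 each), with 3 siERK3 arrays and 1 siCon array above background (limma adjusted p = 0.282). DMP1, a dentin matrix phosphoprotein, was below background on all 6 arrays, at 4.07 in siERK3 and 3.62 in siCon (limma adjusted p = 0.381). Of 13 receptors and processing enzymes of osteopontin, 0 passed in limma, with 1 positive and 2 negative differences at an unadjusted p under 0.05 and a median of -0.17. ITGB1, the integrin beta 1 subunit, averaged 14.36 ± 0.13 in siERK3 and 14.75 ± 0.13 in siCon (SD, n = 3 each; difference -0.39, limma adjusted p = 0.274). MMP7, a protease known to cleave osteopontin, was below background on all 6 arrays, at 3.28 in siERK3 and 3.80 in siCon (limma adjusted p = 0.240). The 7 genes around the GAS6 receptors gave 0 calls in limma, with 1 higher at an unadjusted p under 0.05 and a median of -0.00067.

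Secreted and systemic calcification inhibitors gave 0 calls in limma among 12 genes, with 1 higher at an unadjusted p under 0.05 and a median difference of 0.09. VDR, the vitamin D receptor, averaged 12.29 ± 0.06 in siERK3 and 11.81 ± 0.27 in siCon (SD, n = 3 each; difference 0.48, limma adjusted p = 0.246). FBN1, which encodes the microfibril protein fibrillin 1, averaged 9.18 ± 0.22 in siERK3 and 8.78 ± 0.28 in siCon (SD, n = 3 each; limma adjusted p = 0.396).

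MGP is a common product of chondrocytes, smooth muscle cells and fibroblasts, so their markers were read on the same arrays. Of 18 osteoblast and chondrocyte markers, 0 passed in limma and 3 were higher at an unadjusted p under 0.05. Of the 18, 15 lay below background on all 6 arrays, SP7, ACAN and COL2A1 among these. COL1A2 lay above it on all 6, at 7.90 in siERK3 and 8.11 in siCon, and SOX9 on 1 siERK3 and 1 siCon array. The summed log2 level of the 18 markers was 93.7 to 95.4 in siERK3 and 90.8 to 93.8 in siCon. Their median difference was 0.08. PHEX, a bone endopeptidase, read 4.92 in siERK3 and 4.37 in siCon (limma adjusted p = 0.316), and MSX2, an osteogenic homeobox factor, 6.49 in siERK3 and 6.09 in siCon (limma adjusted p = 0.317), both below background on all 6 arrays. RUNX2, a bone cell factor of the RUNX family, was named after its value had been seen, and its binding to SPP1 was not tested. It read 8.26, 8.25 and 8.39 in siERK3, against 7.35, 8.20 and 8.27 in siCon, where siCon 1 was the low array. The means were 8.30 ± 0.08 in siERK3 and 7.94 ± 0.51 in siCon (SD, n = 3 each). Background was exceeded on 3 siERK3 and 2 siCon arrays, and the groups overlapped (difference 0.36, SE 0.23, limma adjusted p = 0.575).

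Of 7 fibroblast markers, 5 lay below background on all 6 arrays, DCN among them. LUM fell, at 8.77 in siERK3 and 9.60 in siCon (difference -0.83, limma adjusted p = 0.0441). Whether the LUM call holds in the alternative fits was not examined. At an unadjusted p under 0.05, 2 of the 7 had a positive and 1 a negative difference, with a median of 0.17. The 2, FAP and PDGFRB, were named after their values had been seen. FAP had the largest difference of the list, 0.97, at 5.40 in siERK3 and 4.43 in siCon (limma adjusted p = 0.154), below background on all 6 arrays. PDGFRB read 7.66 in siERK3 and 6.91 in siCon (limma adjusted p = 0.0631), above background on 3 siERK3 and 0 siCon arrays. The summed fibroblast level was 41.9 to 44.7 in siERK3 and 41.1 to 43.2 in siCon. Smooth muscle, endothelial and leukocyte markers gave 0 calls in limma among 6, 7 and 6 genes, with 0, 0 and 2 lower and none higher at an unadjusted p under 0.05. Below background on all 6 arrays were 5, 7 and 4 of them, MYH11, CDH5 and PTPRC among these. ACTA2 of the smooth muscle list lay above it on all 6, at 7.95 in siERK3 and 8.09 in siCon. The 2 lower leukocyte markers also lay above it on all 6. They were LYZ (8.55 in siERK3, 9.40 in siCon, limma adjusted p = 0.0965) and CD68 (12.05 in siERK3, 12.51 in siCon, limma adjusted p = 0.152). The summed level of smooth muscle markers was 31.0 to 32.7 in siERK3 and 31.0 to 32.8 in siCon, that of endothelial markers 33.6 to 35.1 in siERK3 and 34.1 to 35.2 in siCon, and that of leukocyte markers 38.3 to 39.5 in siERK3 and 40.0 to 41.0 in siCon. The part of these markers in the MGP difference was not tested. Of 9 melanocyte lineage markers, MITF, SOX10, S100B and EDNRB lay above background on all 6 arrays. The lineage factor PAX3 and the pigment genes MLANA, PMEL, TYR and TYRP1 did so on none. This list had 0 calls in limma and 0 genes at an unadjusted p under 0.05.

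Genes with a profile like that of MGP were ranked by the root mean square difference over the 6 arrays, each gene centred on its own siCon mean, among 8165 genes above background on all arrays of at least 1 group. The nearest were CHPF (0.645), A2M (0.728), EMP2 (0.954), CNIH2 (0.970) and L1CAM (1.00, on the log2 scale). These are a chondroitin polymerising factor, a protease inhibitor, a tetraspan membrane protein, an AMPA receptor auxiliary protein and an adhesion molecule. Their direction is set by the choice of the nearest profiles in this contrast. CHPF and A2M entered the ranking through their siERK3 arrays alone, with 2 and 0 of 3 siCon arrays above background. MGP was chosen as the largest rise, so every other gene has a smaller siERK3 mean after centring, and nothing is read from that. By distance to the MGP profile SPP1 ranked 26 with 1.39, and the other 6 genes of the set above background ranked between 2176 and 7385. The distance includes each gene's own difference in this contrast, so nothing further is read from these ranks.

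**Figure D4:**
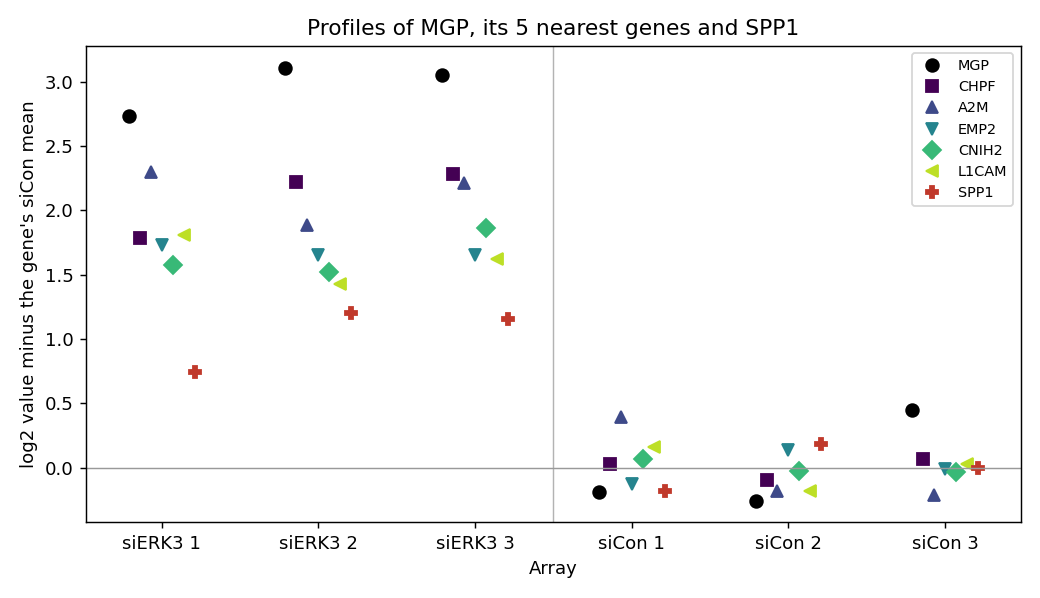
Log2 value minus the gene's own siCon mean (y axis) on each array for MGP, the 5 genes with the nearest profiles and SPP1, siERK3 arrays left of siCon arrays. MGP is the highest point on each siERK3 array and SPP1 the lowest of the 7, with siERK3 1 the lowest siERK3 array for both. MGP was chosen as the largest rise, so its highest siERK3 mean was set in advance.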

How the data were processed

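The values are log2 signals that the authors deposited, 1 per probe set and array (24351 probe sets). Their scale was inferred from their range. The software, background correction and normalization behind them were not given in the sources used here. Arrays were labelled with biotin in 1 colour, per the labels' protocols. The platform annotation gave 1 symbol for 17709 probe sets, and for 20 genes with several the brightest was kept. All genes were kept whatever their level. limma 3.58.1 under R 4.3.3 compared siERK3 with siCon (lmFit, then eBayes, without covariates; prior of 4.77 degrees of freedom; median SE of a gene 0.165), adjusted over all 17687 genes with the Benjamini-Hochberg method. Intervals are those of this moderated fit, and the number of arrays limits the precision. A gene at or under the 95th percentile of the negative controls is called below background.

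Members and gene lists were chosen with earlier results of these data known. Of 184 list symbols 167 were measured. Named genes were the members, MAPK6, list genes past the threshold, the 2 smallest p of each pathway list and the 5 profiles nearest to MGP; other genes are named as chosen after their values were seen, apart from markers given with their lists. Alternatives covered normalization, filters, the variance model, array weights, the replicate number as a block and each array left out; 1 without 2 arrays was added after seeing the data. Same-numbered arrays were not treated as pairs in the reported fit (correlations of deviations across genes 0.05, -0.12 and -0.04).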

Additional observations from a re-analysis of the deposited data

How the results depend on the processing

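The differences of MGP (2.79 to 3.19), SPP1 (0.94 to 1.18), VKORC1, ANKH and SPARC (-0.46 to -0.27) kept their sign under all 17 alternatives, and all 10 members moved by less than their replicate SD wherever they had a value; GGCX, VKORC1L1, ENPP1, ALPL and GAS6 changed sign in 1 or 2 each. MGP lost its place past the threshold without moderation of the variance, and SPP1 there, under the replicate block, in each fit without 1 array and without siCon 2 and siERK3 3; SPARC passed with the mean-variance trend. The number of genes called higher or lower, 79 and 90 in the reported fit, was 184 and 181 after removal of genes under the 30th percentile, 281 and 300 above the median, 343 and 379 with a mean-variance trend and robust eBayes, 4 and 4 without moderation, 11 and 22 with the replicate block, 2 and 5 without siCon 2 and siERK3 3, and 9 to 30 and 13 to 30 with 1 array left out. Pathway genes called higher or lower, 1 and 1, became 2 and 3 above the 30th percentile, 3 and 3 above the median, 6 and 5 with the trend, 0 and 0 without moderation or without siCon 2 and siERK3 3, 0 and 1 with the replicate block and 1 and 2 with array weights; with 1 array left out they were 0 to 1 higher and 1 lower. The causes were not tested. Whether the numbers pair the arrays cannot be settled, as all correlations of deviations were weak (-0.15 to 0.17). By these, siERK3 1 and siERK3 2 correlated best with siCon 1, and siERK3 3 with siCon 2. NT5E failed without moderation (adjusted p = 0.106 in limma) and without siCon 2 and siERK3 3 (0.0845), within a range of 2.03e-07 to 0.106. SMAD6 failed there too (0.127 and 0.141) and with the replicate block (0.0539). ALPL, below the 30th percentile, has no value under either filter, and GAS6 none above the median. Signal near background limits GAS6 and ALPL and the control level of MGP.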

Other observations

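Retinoic acid and vitamin D are known regulators of MGP transcription in other cell types. Their part in the MGP difference was not tested. Among 10 measured genes of retinoid handling and response, 0 passed in limma over all genes, 3 had a positive and 0 a negative difference at an unadjusted p under 0.05 (of all 17687 genes, 1235 and 1149 did), and the median difference was 0.15, against 0.00 over all genes. RARA, a retinoic acid receptor, averaged 9.58 ± 0.15 in siERK3 and 9.03 ± 0.03 in siCon (SD, n = 3 each; difference 0.55, SE 0.13, limma adjusted p = 0.115, range over its alternatives 0.0241 to 0.324). CRABP2, which carries retinoic acid to its receptors, was below background on all 6 arrays, at 5.82 in siERK3 and 5.07 in siCon (limma adjusted p = 0.0807, range over its alternatives 0.0437 to 0.237). So were ALDH1A1, CYP26A1, CYP26B1, RARB and RARRES1, with differences from -0.26 to 0.20. STRA6, RARG and ALDH1A3 lay above background on all 6 arrays, with differences of 0.34, 0.29 and 0.11 (limma adjusted p = 0.325, 0.389 and 0.791). STRA6 was among the 3 with an unadjusted p under 0.05. For vitamin D, CYP24A1 of the secreted inhibitor list was below background on all 6 arrays (difference -0.22, limma adjusted p = 0.560). These further genes were named after their values had been seen.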
